A study of Canis lupus familiaris with 20 samples.

Results

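The genes described here are the 3 rows of the count table that start between positions 73520000 and 73572000 on dog chromosome 3 (CanFam3.1), out of 24580 rows in all. Each of the 3 held at least 10 counts in total, and all 3 passed the filter on low counts. The window was chosen because its position fits a cluster of Toll-like receptor genes (TLR10, TLR1 and TLR6), and its rows were chosen by their measured rise from day 9 to day 14 in MPS VII dogs. That change is therefore given below as a description, with no test.

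Gene expression was measured by RNA sequencing of epiphyseal cartilage, the cartilage at the ends of a bone beside the growth plate, from a thoracic vertebra (T12) of dog pups. In mucopolysaccharidosis VII (MPS VII), a lysosomal storage disease, glycosaminoglycans accumulate, and the dogs belonged to a naturally occurring model with the missense mutation R166H in the GUSB gene. MPS VII dogs were homozygous and control dogs heterozygous, so that controls carried the mutation too. There were 5 control and 5 MPS VII dogs at postnatal day 9, and 5 control and 5 MPS VII dogs at postnatal day 14, with 1 library from each dog. The tissue of each dog combined both ends of the vertebra, and the labels name neither litter nor sex for any sample.

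Toll-like receptors are membrane proteins of innate immune cells and other cells that bind microbial molecules, and most of them signal through the adaptor MYD88 to NF-kB. TLR1 and TLR6 each pair with TLR2 and sense bacterial lipopeptides, with TLR1 directed at triacylated and TLR6 at diacylated forms. TLR10 belongs to the same subfamily and has been described in humans, where B cells and other leukocytes express it and an inhibitory role has been reported. In mammals these genes lie side by side and typically carry their whole coding sequence in a single exon.

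The table holds Ensembl identifiers without gene names, and 0 of them appear in the symbol table used, which is RefSeq's for another assembly (UU_Cfam_GSD_1.0). No name is therefore given to any single row, and the rows are called the first, middle and last gene in the order of their positions. The first gene (ENSCAFG00000016172) lies at 73520706 to 73523099 with 2394 bases of exon. The middle gene (ENSCAFG00000024010) lies at 73542252 to 73544624 with 2373 bases, and the last gene lies at 73568321 to 73570744 with 2424 bases. All 3 are on the plus strand and are annotated with 1 exon each, and gaps of 19.2 kb and 23.7 kb separate them.

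The neighbourhood was compared with that of the other assembly by order and length alone. There TLR1 (2370 bases) and TLR10 (2424 bases) lie on chromosome 3 in that order, with FAM114A1, the microRNA gene MIR574 (58 bases) and the gene LOC119876150 (19220 bases, introns included) before them and KLF3 after them. A non-coding gene, LOC119876151 (53653 bases), is listed between TLR1 and TLR10. TLR6 is not listed there under that symbol. The count table likewise has a row of 58 bases before the first gene. The lengths of the middle and last gene are thus close to those of TLR1 and TLR10. None of these neighbours has the length of the first gene, but a length with introns cannot be set against a summed exon length. LOC119876150 is protein-coding and lies between MIR574 and TLR1, as the first gene lies between the row of 58 bases and the middle gene. The layout does not name a row. Markers of cartilage or of blood and immune cells could not be checked without names, so the cells that gave these counts were not identified.

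Total counts ran from 15772761 to 28028365 per library, lower at day 14 than at day 9 in general. The 3 genes together took between 0.000129% and 0.00217% of them, so that a count in a single library was as low as 2. MPS VII day 9 replicate 3 stood apart over all genes. On the third principal component of log2 CPM, with 11.4% of the variance, it lay at 85.0, whereas the other libraries of its group lay between -17.8 and -4.70. Control day 9 replicate 1 did not stand apart in that way, but it held the most counts of all 3 genes in its group. Where leaving out either library moved a result strongly, the value without it is given beside the result. CPM below are normalised read counts scaled by the TMM-adjusted library size. In whole tissue, a different number of cells of a type and a different amount of RNA per cell cannot be told apart.

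In every one of the 20 libraries the middle gene had the highest level per kilobase of exon, the first gene the next and the last gene the lowest. In day 14 controls the levels in CPM per kilobase were 4.32 ± 0.554 for the middle gene, 1.72 ± 0.526 for the first and 0.666 ± 0.0947 for the last (SD, n = 5 each). The middle gene thus stood 2.51 times above the first and 6.48 times above the last in level per kilobase. In day 14 MPS VII dogs the same levels were 3.23 ± 0.392, 1.12 ± 0.23 and 0.288 ± 0.1, and the middle gene stood 11.2 times above the last.

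Control dogs of day 14 were first compared with control dogs of day 9. None of these libraries entered the contrast by which the genes were chosen. All 3 genes rose, by 5.38 to 6.76 times, and for each of them every day 14 library lay above every day 9 library. The first gene stood at 1.08, 0.341, 0.264, 0.58 and 0.716 CPM in the 5 control libraries of day 9. At day 14 it stood at 3.75, 2.98, 5.9, 4.92 and 3.07 CPM. Its lowest day 14 library was well above its highest day 9 library, and the fitted rise was 2.76 ± 0.35 on the log2 scale (SE, edgeR quasi-likelihood test, Benjamini-Hochberg adjusted p = 3.15e-06).

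The middle gene, the most abundant of the 3, was the best measured. It stood at 2.20, 1.07, 1.98, 2.78 and 1.52 CPM in day 9 controls and at 10.9, 8.79, 11.5, 11.3 and 8.86 CPM in day 14 controls. The groups lay far apart against the spread within each, and the fitted rise was 2.43 ± 0.20 on the log2 scale (SE, adjusted p = 1.53e-08 by the same edgeR test). The raw counts moved the same way although the day 14 libraries were smaller, from 215 counts over the 5 day 9 libraries to 1100 over the 5 day 14 libraries.

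The last gene was close to the limit of detection in most day 9 controls, with 20, 2, 2, 4 and 2 counts. A count of 2 has an exact 95% Poisson interval of 0.242 to 7.22 counts, which covers counting error only. The interval takes counts as independent and would be wider if both reads of a pair had been counted. At day 14 it held 38, 37, 34, 31 and 32 counts. The fitted rise was 2.67 ± 0.48 on the log2 scale (SE, adjusted p = 0.000149 by edgeR), from 0.238 CPM ± 0.264 to 1.61 CPM ± 0.23 (SD, n = 5 each). Control day 9 replicate 1, with 20 of the group's 30 counts, sets the size of this rise. When it was left out, the log2 fold change came to 3.70 and the day 9 mean was 0.124 CPM ± 0.0721 (SD, n = 4).

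**Figure D1:**
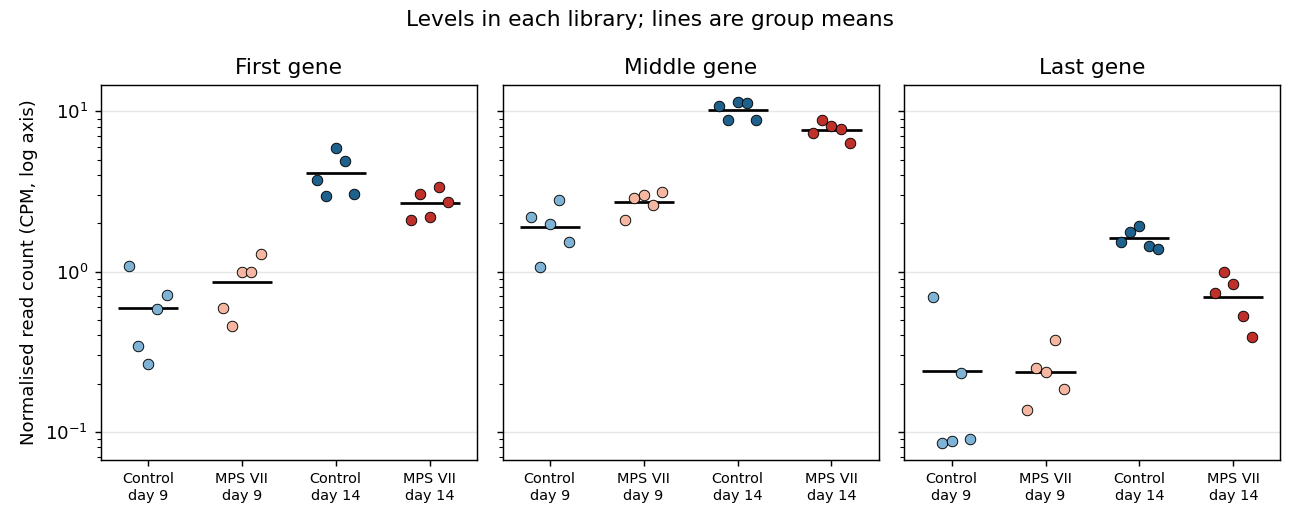
Normalised read counts (CPM, log axis) of the first, middle and last gene in each of the 20 libraries, in 4 groups of 5; points are libraries and lines are group means. For each gene all day 14 libraries lie above all day 9 libraries of the same genotype, and the last gene in control day 9 replicate 1 (0.697 CPM) lies apart from its group.

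Of the 14550 tested genes, 21.8% rose with age in controls by the same test, so 3 called genes of 3 stand against a common event. In 20.2% of all tested genes every day 14 control library lay above every day 9 control library. The median log2 fold change of the 3 genes was 2.67, beside -0.06 over all tested genes. With control day 9 replicate 1 and MPS VII day 9 replicate 3 both left out, all 3 genes kept their calls, with log2 fold changes of 3.14, 2.52 and 3.73 in order of position. That fit called 47.6% of its 14616 tested genes with age in controls, in either direction. Age went with library size in these samples, and a batch that went with age cannot be told apart from it.

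In MPS VII dogs the same ages were compared as a description only, since this is the contrast by which the genes were chosen. The first gene stood at 0.59, 0.459, 0.988, 0.987 and 1.29 CPM at day 9 and at 2.11, 3.05, 2.18, 3.39 and 2.72 CPM at day 14. The middle gene stood at 2.09, 2.88, 3, 2.59 and 3.13 CPM at day 9 and at 7.30, 8.85, 8.09, 7.79 and 6.35 CPM at day 14. In both genes the day 14 libraries all lay above the day 9 libraries. The last gene held 3, 6, 6, 8 and 4 counts at day 9 and 16, 21, 15, 10 and 8 counts at day 14. Its highest day 9 library and its lowest day 14 library both held 8 counts, and they were separated only after scaling, at 0.376 and 0.388 CPM. The log2 differences were 1.64 ± 0.34, 1.49 ± 0.19 and 1.54 ± 0.49 (SE) in order of position. In 7.96% of all tested genes the MPS VII libraries of day 14 all lay above those of day 9. MPS VII day 9 replicate 3 lay within the range of its group in each of the 3 genes.

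**Figure D2:**
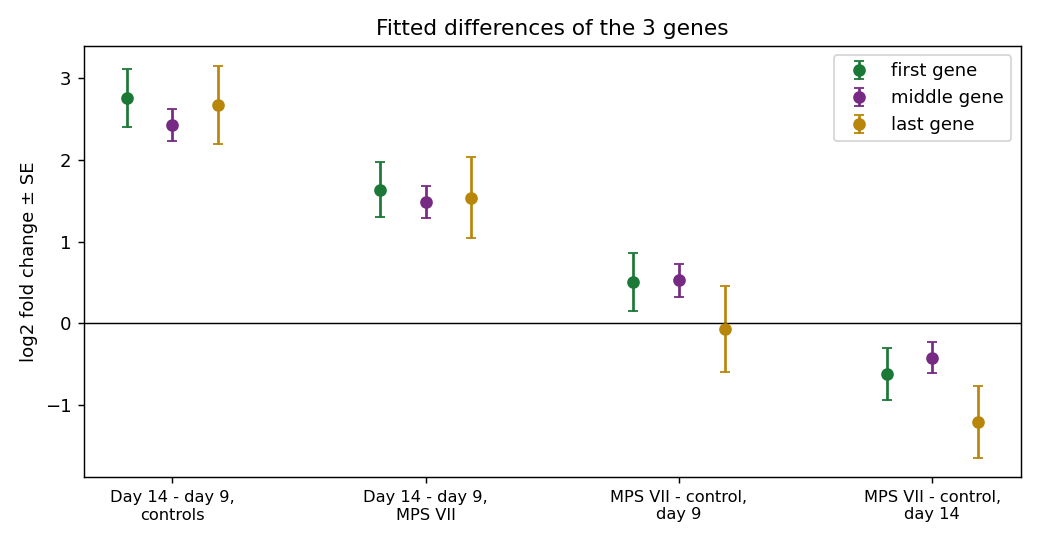
Log2 fold changes of the 3 genes with their standard errors, for day 14 against day 9 in each genotype and for MPS VII against control at each age. The changes with age lie between 2.43 and 2.76 in controls and between 1.49 and 1.64 in MPS VII dogs, and the day 14 genotype differences lie below 0 for all 3 genes.

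Side by side, the changes with age were 2.76 and 1.64 for the first gene, 2.43 and 1.49 for the middle gene and 2.67 and 1.54 for the last (log2, controls and then MPS VII). The change in MPS VII dogs was thus smaller by 1.12 ± 0.48, 0.94 ± 0.27 and 1.13 ± 0.70 (SE). These differences contain the contrast by which the genes were chosen and are given without a test. For the last gene the difference was -2.16 without control day 9 replicate 1.

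The genotypes were then compared at each age. The 5 MPS VII libraries of each age also entered the contrast by which the genes were chosen, so these tests are not independent of that choice. At day 9 none of the 3 genes passed edgeR's test, which called 8.38% of all tested genes. None of them had genotypes that did not overlap either, as 8.09% of all tested genes had. At an unadjusted p under 0.05 there was 1 of them, beside 22.7% of all tested genes. DESeq2 called 0, beside 10.7% of all genes it tested. The middle gene had 1.91 CPM ± 0.654 in controls and 2.74 CPM ± 0.414 in MPS VII dogs (SD, n = 5 each), and the libraries of both genotypes overlapped. Its log2 difference was 0.53, with a 95% interval of 0.11 to 0.94 and an edgeR adjusted p of 0.116. Without control day 9 replicate 4 it was 0.69, and the gene then passed (edgeR adjusted p = 0.0373).

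The first gene had 0.597 CPM ± 0.326 in day 9 controls and 0.862 CPM ± 0.335 in day 9 MPS VII dogs (SD, n = 5 each). Its log2 difference was 0.51, with a 95% interval of -0.24 to 1.25 (edgeR adjusted p = 0.42). It was 0.86 without control day 9 replicate 1 (edgeR adjusted p = 0.196) and 0.32 without control day 9 replicate 3 (edgeR adjusted p = 0.645). The last gene had 0.238 CPM ± 0.264 and 0.237 CPM ± 0.0902, with a log2 difference of -0.07 and a wide interval of -1.15 to 1.01 (edgeR adjusted p = 0.952). That value turned to 0.96 without control day 9 replicate 1 (edgeR adjusted p = 0.282).

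At day 14 all 3 genes had lower means in MPS VII dogs, and none passed edgeR's test, which called 22.0% of all tested genes. At an unadjusted p under 0.05 there were 2 of them, beside 33.5% of all tested genes. DESeq2 called 2, the middle and the last gene, beside 24.7% of all genes it tested. The last gene differed most, with 1.53, 1.78, 1.93, 1.45 and 1.38 CPM in controls and 0.735, 0.999, 0.837, 0.53 and 0.388 CPM in MPS VII dogs. Every MPS VII library lay below every control library, as it did in 9.83% of all tested genes. The log2 difference was -1.20, with a 95% interval of -2.12 to -0.28 and an edgeR adjusted p of 0.0552. The adjusted p was 0.0261 by DESeq2, 0.0254 with all counts halved and 0.00923 with only the day 14 libraries in the edgeR fit. By edgeR it was also 0.0514 with median-ratio scaling, 0.0801 with no filter and 0.0523 to 0.125 with each day 14 library left out. This difference thus fell on either side of the threshold, depending on the processing. The fit on halved counts called 23.8% of all its genes and the fit of the day 14 libraries alone 27.3%.

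The middle gene had 10.2 CPM ± 1.31 in day 14 controls and 7.68 CPM ± 0.931 in day 14 MPS VII dogs (SD, n = 5 each). The highest MPS VII library, at 8.85 CPM, lay just above the lowest control library, at 8.79 CPM. The log2 difference was -0.42, with a 95% interval of -0.80 to -0.03 (edgeR adjusted p = 0.114, 0.0481 by DESeq2 and 0.0325 with only the day 14 libraries in the edgeR fit). By edgeR the adjusted p was 0.0951 with median-ratio scaling, 0.142 with no filter and 0.0908 with all counts halved. With each day 14 library left out it was 0.0994 to 0.217 by edgeR. The first gene had 4.12 CPM ± 1.26 and 2.69 CPM ± 0.551, with overlapping libraries. Its log2 difference was -0.61, with a 95% interval of -1.27 to 0.04 (edgeR adjusted p = 0.18). The median over the 3 genes was -0.61, beside 0.03 over all tested genes.

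Genes of this family resemble each other, and reads that match more than one of them could have been placed on the wrong one. How such reads were counted is not given in the sources used here. The counts of the 3 genes were therefore also summed to a single row. The sum stood at 2.75 CPM ± 1.02 in day 9 controls, 3.84 CPM ± 0.68 in day 9 MPS VII dogs, 11.1 CPM ± 1.34 in day 14 MPS VII dogs and 16.0 CPM ± 2.58 in day 14 controls (SD, n = 5 each). The summed row rose with age in controls by 2.56 ± 0.21 on the log2 scale (edgeR adjusted p = 1.16e-08). It differed between genotypes by 0.47 ± 0.20 at day 9 (edgeR adjusted p = 0.175) and by -0.53 ± 0.19 at day 14 (edgeR adjusted p = 0.0498), which is at the threshold.

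In order of mean level, the groups ran from day 9 controls through day 9 MPS VII and day 14 MPS VII dogs to day 14 controls for the first and the middle gene. For the last gene the day 9 groups had nearly equal means, at 0.238 CPM in controls and 0.237 CPM in MPS VII dogs. That equality rests on control day 9 replicate 1, without which the control mean was 0.124 CPM ± 0.0721 (SD, n = 4). Neighbours in this order at the same age did not differ past the threshold in any of the 3 genes in the main edgeR fit. In some of the other fits given above, the middle and the last gene passed at day 14 and the middle gene at day 9.

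The make-up of the summed counts within a library does not depend on scaling. The middle gene took 70.9% ± 11.3 of the 3 genes' counts in day 9 controls, 71.8% ± 5.74 in day 9 MPS VII dogs, 64.4% ± 3.11 in day 14 controls and 69.4% ± 2.84 in day 14 MPS VII dogs (SD, n = 5 each). The first gene took mean shares of 21.7% to 25.3% in the 4 groups. The last gene took 10.2% ± 1.8 in day 14 controls and 6.23% ± 1.77 in day 14 MPS VII dogs, and the libraries of these groups did not overlap (8.24% to 13.1% against 4.1% to 7.75%). The gap between the lowest control library and the highest MPS VII library lay within the counting error of each. That does not bear on the difference between the group means, which was not tested. The exact 95% binomial interval was 5.67% to 11.5% for the lowest control library and 4.86% to 11.6% for the highest MPS VII library. These shares rest on the same counts as the CPM above, and the share of all genes that would separate this way was not computed. In day 9 dogs it took 7.47% ± 5.75 in controls and 6.19% ± 2.16 in MPS VII dogs (SD, n = 5 each). Without control day 9 replicate 1 the control mean was 4.95% ± 1.35 (SD, n = 4), so that 1 library set the order of these means. That library was the highest of all 20, at 17.5%, with an exact 95% binomial interval of 11.1% to 25.8% that covers counting error only. The binomial intervals also take counts as independent and would be wider if both reads of a pair had been counted.

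**Figure D3:**
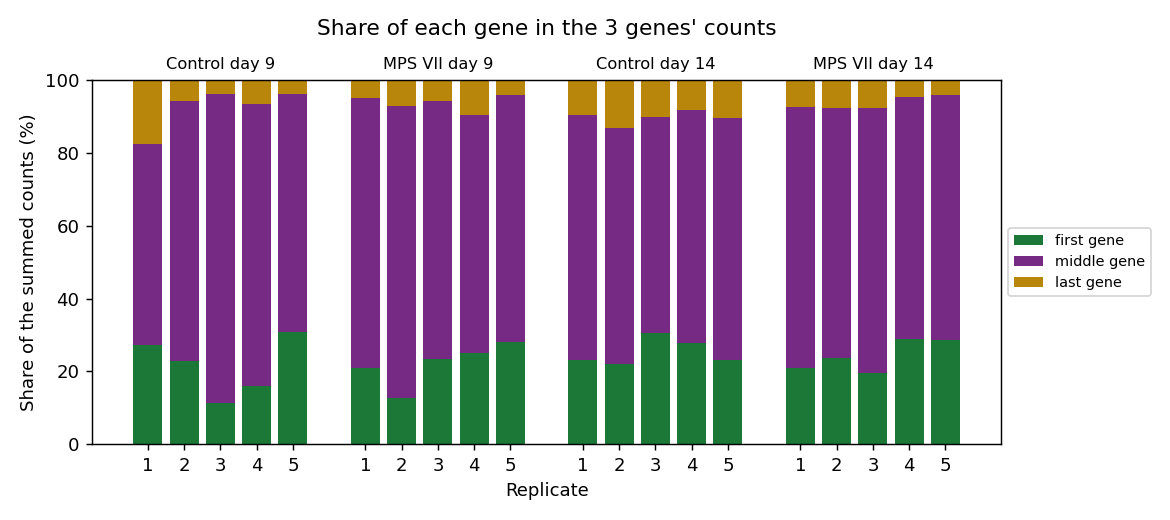
Share of the first, middle and last gene in the summed counts of the 3 genes, in percent, for each replicate of the 4 groups. The middle gene holds more than the other genes together in every library, and the last gene's share is largest in control day 9 replicate 1 (17.5%).

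The neighbouring rows were set beside the 3 genes. The nearest tested row before them, at 73424210 to 73494409 on the minus strand, was abundant and did not pass the test with age in controls, from 392 CPM ± 31.8 to 361 CPM ± 29.4 (SD, n = 5 each, log2 fold change -0.12, edgeR adjusted p = 0.618). The nearest tested row after them, at 73626642 to 73663660 on the minus strand, rose by 1.05 ± 0.09 on the log2 scale (adjusted p = 2.53e-08 by edgeR), with 28.5 CPM ± 3.01 at day 9 and 59.0 CPM ± 3.88 at day 14. It was also higher in MPS VII dogs at day 9, by 0.33 ± 0.09 on the log2 scale (adjusted p = 0.0257 by edgeR). The second row before them, at 73363301 to 73411128, rose by 1.34 ± 0.26 (edgeR adjusted p = 0.000351). Of 6 tested neighbours within 500 kb of the centre of the 3 genes, 0 changed as much with age in controls as the least changed of the 3. Their log2 fold changes ran from -0.12 to 1.34, and at day 14 their genotype differences ran from -0.43 to 0.16. Between genotypes the same count, taken without regard to sign, was 5 of the 6 neighbours at day 9 and 1 at day 14. The genotype differences thus did not set the 3 genes apart from their neighbours as the change with age did.

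The 3 nearest tested rows on each side also included 2 rows farther away after the cluster. One of them, at 74077121 to 74316957, was higher in MPS VII dogs at both ages, by 1.15 ± 0.19 at day 9 (edgeR adjusted p = 0.000382) and by 1.05 ± 0.19 at day 14 (edgeR adjusted p = 0.00041). The other, at 74185170 to 74185933, passed the test in none of the 3 tested comparisons. The third row before the cluster, at 73263478 to 73342157, did not pass either.

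**Figure D4:**
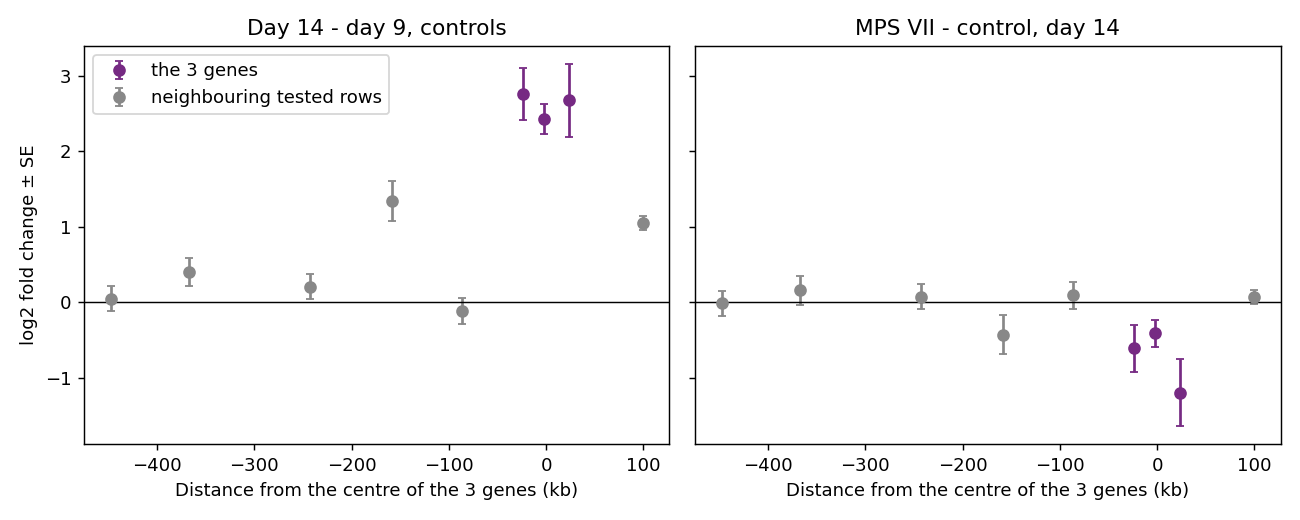
Log2 fold changes with standard errors of the 3 genes and of 6 tested neighbours, against distance in kb from the centre of the 3 genes, for age in controls and for genotype at day 14. In controls the 3 genes lie at 2.43 to 2.76 and the neighbours at -0.12 to 1.34.

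The rows whose pattern was most like the cluster were sought among all tested genes. The measure was the root mean square difference over the 20 libraries between a row's centred log2 CPM and the mean centred log2 CPM of the 3 genes. The closest row lies on chromosome 18 at 21329616 to 21410296, with a difference of 0.366. It stood at 2.25 CPM and 12 CPM in controls at day 9 and day 14, and at 2.4 CPM and 6.95 CPM in MPS VII dogs. The next lie on chromosome 28 at 7207213 to 7414871 (0.393), on chromosome 10 at 11346197 to 11352276 (0.397) and at 35494461 to 35504313 (0.41), and on chromosome 12 at 69982483 to 69987647 (0.418). The first, middle and last gene themselves lay at 0.287, 0.257 and 0.327 from their own mean, and the median tested gene at 1.20. Each of the 3 genes is part of that mean, so their closeness to it is partly built in. It cannot be set against the distances of the other rows. All these values share the same libraries, so they describe likeness in these samples only.

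Tested rows of 3 other stretches, where earlier results of these data had shown runs of neighbours called in 1 direction, were set beside the cluster, with no test of the difference between them. Calls in these stretches follow in part from that choice, so their numbers are a description only. Over all tested genes, 21.8% were called higher with age in controls. Between genotypes, 8.38% were called at day 9 and 22.0% at day 14, in either direction. The run on chromosome 9 (5858852 to 5976435, 4 tested rows) had a median log2 fold change of 2.04 with age in controls, and 4 of its rows were called higher. It was also higher in MPS VII dogs in 4 of 4 rows at each age, with medians of 2.55 at day 9 and 1.40 at day 14. The run on chromosome 12 (9858317 to 10000216, 5 tested rows) had a median of 0.44 with age in controls, with 2 rows called higher and 1 lower. Between genotypes its medians were 2.60 at day 9, with 4 rows called higher, and 1.64 at day 14, with 5 called higher. In the 11 tested rows on chromosome 27 (35828941 to 36818398) the median was 1.60 with age in controls, with 9 rows called higher and 1 lower. Between genotypes it was 0.44 at day 9, with 3 rows called higher, and -0.09 at day 14, with 5 called higher and 2 lower. The 3 genes of chromosome 3, called higher in 3, 0 and 0 cases, had medians of 2.67, 0.51 and -0.61 in the same comparisons.

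**Figure D5:**
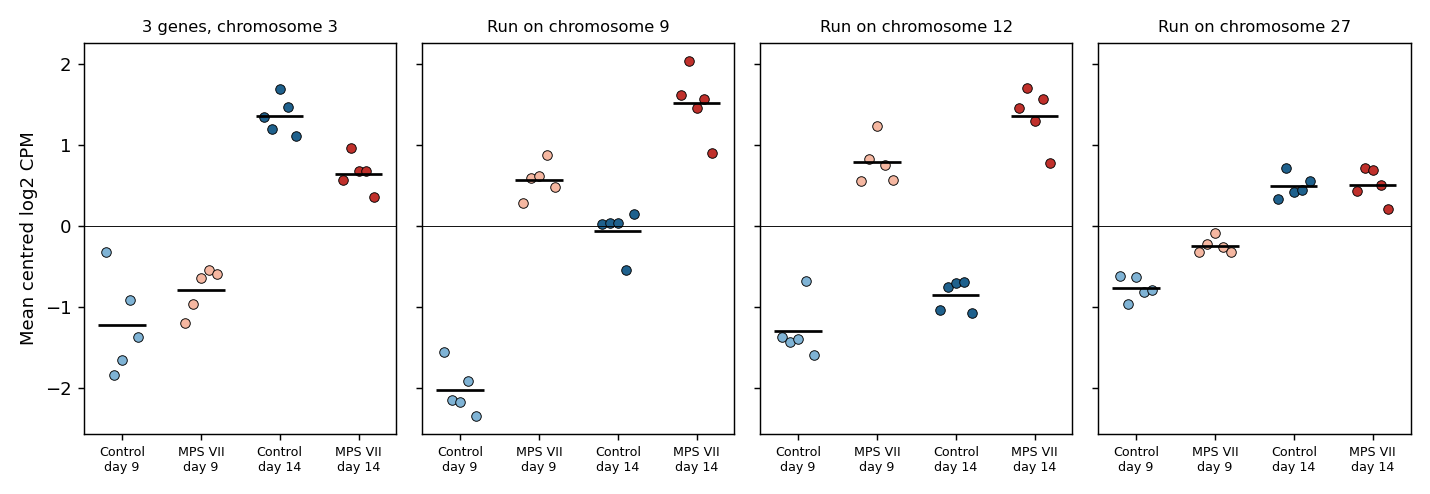
Mean centred log2 CPM of the 3 genes and of the tested rows of 3 other runs in each library, by group; points are libraries and lines are group means. On chromosome 3 the day 14 controls are highest, while on chromosomes 9 and 12 the day 14 MPS VII dogs are highest.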

How the data were processed

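Per the labels' protocols, polyadenylated RNA with an integrity number above 7 went into stranded paired-end libraries whose reads were mapped to CanFam3.1 with Ensembl build 77. Tools in the submitters' processing notes, listed without roles, are STAR 2.4.0j, HTSeq, edgeR, CASAVA 1.8.2 and bcl2fastq. For the strand setting and the handling of multiply matching reads, the sources used here give nothing. The deposited values are raw counts per gene, per the file headers, with 0 count columns of no sample.

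From the counts, edgeR 4.0.16 (R 4.3.3) kept 14550 genes by filterByExpr, which dropped 10030 genes with 0.0413% of counts. It scaled libraries by TMM and fitted 1 mean per group over all 20 libraries with robust quasi-likelihood dispersions. Calls are at 0.05 after Benjamini-Hochberg adjustment of p-values across the tested genes. Standard errors are the log2 fold change over the square root of F. Log2 CPM used a prior count of 2. DESeq2 1.42.0, other scaling, no filter, halved counts, fewer groups, summed rows and omitted libraries were alternatives. Halving was tried because 65.2% to 76.4% of counts above 0 and under 200 were even, as when both mates are counted.

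Members and lists were chosen with earlier results of these data known. All 3 rows of the window are named. Identifiers are printed for the 2 with the most counts. Other rows were taken by position or by likeness of pattern. Planned marker and pathway lists need gene names and were not used. No 2 libraries of a group agreed within sampling noise (chi-square per gene 16.7 to 607 over 40 pairs). The series' design text gives 5 animals per group.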

Additional observations from a re-analysis of the deposited data

Results flagged for a closer look

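The last gene in control day 9 replicate 1 stood at 0.697 CPM, while the rest of its group stood at 0.0854 to 0.232 CPM. The gap to the nearest library was 0.761 of the whole range of the group, which is more than the limit set for 5 samples. The same library was also the highest of its group for the first gene (1.08 CPM, against up to 0.716 CPM), but for the middle gene it stood at 2.20 CPM, below replicate 4 at 2.78 CPM. Chance flags about 1 in 20 groups, and 12 combinations of gene and group were examined. The part of this library in the results of the last gene is given beside them, and a cause was not tested.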

How the results depend on the processing

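The rise of all 3 genes with age in controls kept its call under median-ratio scaling, no filter, halved counts, DESeq2, only the control libraries in the fit and each library left out in turn (3 called in each). Over the left-out libraries the log2 fold changes ran from 2.57 to 3.11 for the first gene, 2.28 to 2.59 for the middle and 2.46 to 3.70 for the last. Summed to 1 row, 1 row was called. The main fit called 21.8% of all tested genes higher with age in controls, and the share was not computed under these alternatives. At day 14 the number of genes called between genotypes went from 0 (22.0% of all tested genes called) to 1 with halved counts (23.8%), to 2 with DESeq2 (24.7%), to 2 in a fit of the day 14 libraries alone (27.3%) and to 1 with the rows summed (1 of 1), and it was 0 with each library left out; the cause was not tested. At day 9 it ran from 0 to 1 over the left-out libraries, beside 8.38% of all tested genes called in the main fit. The day 9 difference of the last gene ran from -0.28 to 0.96 over the left-out libraries. It was 0.95 with control day 9 replicate 1 and MPS VII day 9 replicate 3 both left out, an alternative chosen after seeing the data. In MPS VII dogs the median change with age ran from 1.40 to 1.69 over the left-out libraries, and the median difference of the age change from -1.47 to -0.92. In fits of the day 9 libraries alone and of the MPS VII libraries alone, the last gene did not pass the filter on low counts. No paired analysis was possible because the labels give no replicate, litter or pair numbers. Low counts limit the last gene most.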
